A study of Mus musculus with 3 samples.

Results

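Keratocytes are the fibroblast-like cells of the corneal stroma. They lay down thin, evenly spaced collagen fibrils and the small leucine-rich proteoglycans lumican, keratocan and decorin, which hold the spacing that keeps the cornea clear. Lumican and keratocan carry keratan sulfate side chains and decorin a chain of dermatan or chondroitin sulfate. In the mouse they arise from the neural crest, lie flat and quiet between the collagen lamellae, and carry high levels of soluble enzymes known as corneal crystallins. After injury they can turn into wound fibroblasts or smooth-muscle-actin-positive myofibroblasts, with less keratocan.

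The cells described here are the TM1 group, 422 of the 26008 cells that the authors kept. Their cluster label in the authors' deposited annotation chose them: TM1 is the first of 11 groups, TM1 to TM11, that the authors obtained by clustering again the cells of several stromal clusters, and its markers Kera, Angptl7, A2m and Matn4 were picked on these same samples. The study asked how loss of Angpt1, a ligand of the endothelial receptor Tek, changes the cells around the drainage canal of the eye. Microdissected limbus and iridocorneal angle, the ring where cornea, sclera and iris meet, was taken from mice aged 6 weeks and sequenced on the 10x Genomics Chromium platform. There were 2 libraries from Angpt1 flox/flox mice without Cre (control 1 and control 2) and 1 library from Angpt1 flox/flox;Wnt1Cre+ mice (Angpt1ΔNC), in which Wnt1-Cre deletes the floxed gene in neural crest derivatives. Every library pooled the eyes of several mice on a mixed background crossed to albino ICR mice, so no value belongs to 1 animal. The authors describe the pools as mixed in sex. The single Angpt1ΔNC library has no replicate, and every genotype test below assumes that it varies as the controls did around their own mean, with 1 residual degree of freedom between libraries.

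TM1 held 159 cells in control 1, 148 in control 2 and 115 in Angpt1ΔNC, with 2044417, 1785549 and 1154534 UMIs (unique molecular identifiers, each counting 1 captured transcript). Median UMIs per TM1 cell were 13469, 12017.5 and 10273, and mitochondrial transcripts took 2.48%, 3.54% and 3.80% of their UMIs. Levels are given as the mean over cells of the UMIs of a gene per 10000 UMIs of the cell, always in the order control 1, control 2, Angpt1ΔNC. Changes are log2 ratios of Angpt1ΔNC over control from edgeR's quasi-likelihood test on UMI counts summed per library, with p-values adjusted over all genes tested by the Benjamini-Hochberg method, and "rose", "fell" and "called" mean an adjusted p under 0.05. The libraries differed in the sex of their TM1 cells. Xist, the noncoding RNA of the inactive X chromosome, had 0, 0 and 400 UMIs and was present in 49.6% of the Angpt1ΔNC cells, at least 206-fold higher than in the controls. None of the 159 and 148 control keratocytes had an Xist UMI, so the keratocytes of both controls looked male, against the description of the pools, and sex and genotype cannot be told apart outside the male-typed cells. Cells with Y-linked transcripts and no Xist numbered 120, 125 and 45, and the results that the text turns on are therefore also given for these male-typed cells.

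The cells carried keratocyte transcripts and hardly any epithelial ones. Keratocan (Kera; GRCm38/mm10, chromosome 10, 97606879 to 97613692), the cornea's own keratan sulfate proteoglycan, had levels of 65.7, 59.6 and 15.8 in TM1, and of 0.544, 0.390 and 0.130 over all other cells. Lumican (Lum) had levels of 71.4, 72.9 and 49.6, decorin (Dcn) of 413, 458 and 456, and the crystallin enzyme Aldh3a1 of 23.9, 27.1 and 14.2. By contrast the summed level of the limbal and corneal epithelial markers was 0.981, 0.901 and 1.27 in TM1 and 453, 417 and 362 in the authors' limbal and corneal epithelium, clusters 4 and 5. Krt5, the keratin of basal epithelial cells, had a UMI in 12.6%, 6.76% and 11.3% of TM1 cells, and after thinning every cell to 2000 UMIs in 2.00%, 0.676% and 1.82%. The measured genes are those of keratocytes of the stroma, not of keratin-rich keratinocytes, and the class is called keratocytes below. Marker lists of 5 other classes were low throughout, with summed levels in TM1 of 0.406, 0.250 and 0.249 for vascular endothelium, 0.572, 0.297 and 0.272 for leukocytes, 0.0336, 0.0193 and 0.0325 for Schwann cells, 0.0291, 0.0281 and 0.0433 for conjunctival epithelium and 0.250, 0.104 and 0.0356 for retinal pigment epithelium. Lists for corneal endothelium (2.66, 3.75 and 4.64), trabecular meshwork (1.31, 1.60 and 1.36) and Cd34-positive fibroblasts (2.60, 3.45 and 3.00) were also a small part of the class. Tendon and scleral markers summed to 10.5, 11.4 and 8.46, and melanocyte markers to 0.975, 0.502 and 1.31, with Tyrp1 called higher in Angpt1ΔNC.

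The gene set that led TM1 was that of a cell building corneal stroma. Ranked by the lower of the control folds over all other cells (0.1 added to both levels), among genes present in at least 25% of TM1 cells, the 20 leading genes were Kera, Angptl7, A2m, Matn4, Pantr1, Col1a1, Cyp2f2, Ntrk2, Dpt, Dpep1, Col6a3, Col6a2, Col6a1, Smoc2, Igfbp2, Spon1, Col5a2, Col1a2, Fgf21 and Chst5. Collagens make up 6 of them, and they include the chains of type I collagen, the main fibril of the stroma, and the 3 chains of type VI collagen, which forms beaded filaments between fibrils. Chst5 is the sulfotransferase that sulfates corneal keratan sulfate, dermatopontin (Dpt) binds decorin and helps fibrils assemble, and Ntrk2 is the receptor of the neurotrophin BDNF. Since these genes drew the cluster, their folds describe it and test nothing. Angptl7 (chromosome 4, 148495183 to 148500460), a secreted angiopoietin-like protein of cornea and meshwork, had levels of 31.1, 60.9 and 43.3. A2m (chromosome 6, 121635376 to 121679227), alpha-2-macroglobulin, traps proteases of many classes and had levels of 69.0, 65.9 and 26.7. Matn4 (chromosome 2, 164389393 to 164405160), the matrix protein matrilin 4, had levels of 18.5, 18.7 and 14.8.

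**Figure D1:**
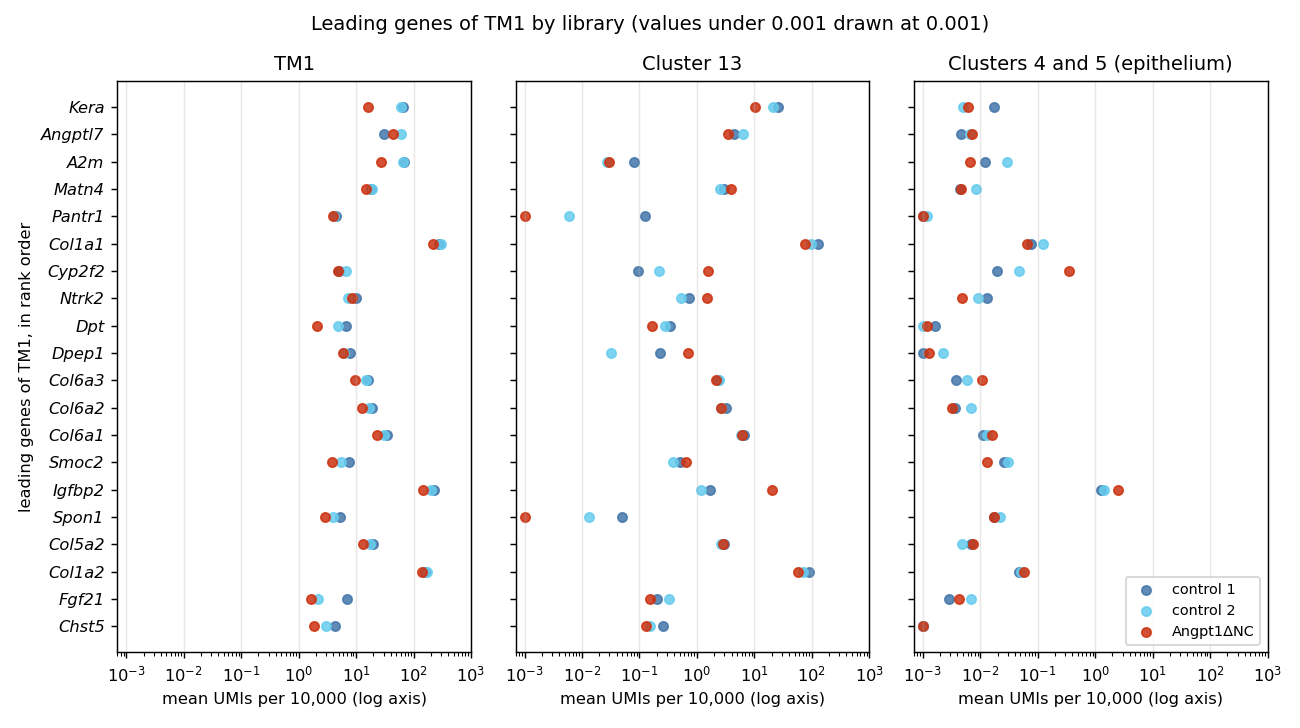
Each point is the mean UMIs per 10000 of the cell (log axis) of 1 of the 20 leading genes in 1 library, in TM1, in cluster 13 and in the epithelium of clusters 4 and 5. Kera and A2m sit lower in the Angpt1ΔNC cells of TM1 (15.8 and 26.7) than in either control, Kera is also present in cluster 13 (26.03, 20.7 and 10.1), and A2m is near 0 there.

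A class outside the TM groups that was chosen for comparison was cluster 13, a stromal cluster with 165, 165 and 64 cells that the authors also placed in the corneal stroma. Its Kera level was 26.03, 20.7 and 10.1, but its A2m level was 0.0809, 0.0275 and 0.0297, and the other keratocyte genes on the list (Lum, Aldh3a1 and others) summed to 8.79, 7.17 and 15.3 there against 111, 111 and 71.6 in TM1. Tendon and scleral markers were the higher set in cluster 13, at 53.1, 48.8 and 44.4. The pair of classes therefore shared keratocan and differed in A2m and in the summed level of those other listed keratocyte genes. Decorin was shared as well, with Dcn levels of 317, 272 and 378 in cluster 13. Angptl7 was found in 53.3% and 61.2% of the cluster 13 cells of control 1 and control 2, and Matn4 in 60% and 58.8%. Both genes had lower levels there than in TM1. These values describe clusters that such genes helped to draw.

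Angpt1 itself, the targeted gene (chromosome 15, 42424723 to 42676977), was a low transcript of keratocytes. It had 20, 27 and 0 UMIs, in 16 of 159 cells (10.1%), 23 of 148 (15.5%) and 0 of 115 cells. The fall was at least 3.76-fold against a floor of 3 UMIs in the Angpt1ΔNC library, with an adjusted p of 0.0037. In the epithelium, which does not arise from the neural crest, a UMI was found in 3 of 989 (0.303%), 5 of 1012 (0.494%) and 0 of 911 cells, and in cluster 13 in 4 of 165 (2.42%), 4 of 165 and 0 of 64 cells. The keratocyte share in the controls was thus above the share in the epithelium, whose median UMIs per cell were higher (17717, 15168.5 and 15135). The targeted gene thus went with the labels.

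Keratocytes made up 1.75% of kept cells in control 1 (exact 95% binomial interval 1.49 to 2.04), 1.46% in control 2 (1.23 to 1.71) and 1.70% in Angpt1ΔNC (1.40 to 2.03). The 3 intervals overlap, and they cover counting error only. Of the cells labelled TM1 to TM11, keratocytes were 5.67%, 4.45% and 5.91%. When cells were instead taken by a UMI of all 4 markers, 152, 140 and 76 cells qualified, and within TM1 92.5%, 88.5% and 62.6% of cells held all 4. Kera and A2m differed between genotypes and were among the genes that set the clusters, so these sizes are not compared as a measure of cell loss. No barcode of a TM1 cell was shared between libraries.

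Fewer keratocytes of Angpt1ΔNC eyes carried keratocan, and those that did carried less. A Kera UMI was found in 97.5%, 89.9% and 65.2% of cells, and after thinning to 2000 UMIs in 96.7%, 89.2% and 57.3%, with 9, 0 and 5 cells too shallow to be thinned. The median level per cell was 65.7, 63.1 and 8.30 and the upper quartile 78.0, 79.9 and 30.4. A level of at least 10 was reached by 152 cells of control 1 (95.6%), 131 of control 2 (88.5%) and 55 of Angpt1ΔNC (47.8%). A2m shifted over most of the cells, with medians of 65.1, 62.5 and 22. The 40 Angpt1ΔNC cells with no Kera UMI still held other stromal transcripts, but less A2m, Angptl7 and Col1a1. Their levels beside those of the 75 Kera-positive cells of the same library were 473 and 447 for Dcn, 45.5 and 51.8 for Lum, 14.4 and 15.0 for Matn4, 176 and 239 for Col1a1, 34.2 and 48.2 for Angptl7, and 16.2 and 32.3 for A2m. Their median UMI count was 9414.5, against 10968 in the Kera-positive cells. Igfbp6, a binding protein with preference for insulin-like growth factor II, had a level of 11.4 in the Kera-negative and 4.67 in the Kera-positive cells, and the protease gene Mmp3 of 12.7 and 6.66. The protease inhibitor gene Timp3 (3.24 and 4.07) and the smooth muscle actin gene Acta2 (0.140 and 0.915) went the other way. Control 2 had 15 Kera-negative cells with a split of the same direction for Igfbp6 (2.45 and 0.685) and A2m (27.0 and 70.3), and control 1 had 4 such cells (Igfbp6 0.683 and 0.500, A2m 61.0 and 69.3). These splits compare cells within a library and carry no test.

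**Figure D2:**
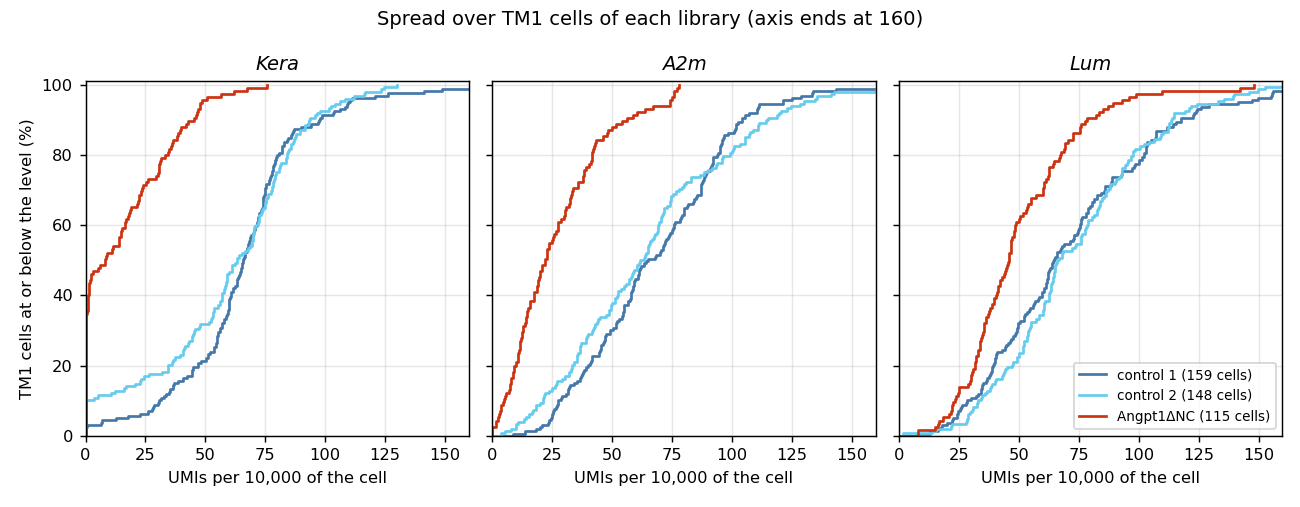
Cumulative share of TM1 cells (%) at or below a level (UMIs per 10000 of the cell, axis ending at 160) for Kera, A2m and Lum, 1 line per library. The Angpt1ΔNC line for Kera starts with the 40 cells that had no UMI and has its median at 8.30, against 65.7 and 63.1 in the controls, while the Lum lines lie closer together.

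Between genotypes, keratocan and A2m fell, while the other 2 markers, lumican, decorin and the type I collagen gene Col1a1 were not called. Kera changed by −1.91 ± 0.27 (SE; adjusted p = 4.63e-06) and A2m by −1.32 ± 0.26 (adjusted p = 0.00128), both with the Angpt1ΔNC value below the lower control and both called by DESeq2 too. Matn4 (−0.37 ± 0.23, adjusted p = 0.487), Lum (−0.58 ± 0.26, adjusted p = 0.254), Dcn (0.06 ± 0.31, adjusted p = 0.963) and Col1a1 (−0.57 ± 0.30, adjusted p = 0.372) did not pass. Angptl7 changed by −0.15 ± 0.29 (adjusted p = 0.887), and its Angpt1ΔNC level lay between the controls, so that its sign turned to 0.53 without control 2. In the male-typed cells Kera changed by −1.68 (adjusted p = 0.0197) and A2m by −0.97 (adjusted p = 0.166). Within the Angpt1ΔNC library, male-typed cells had a Kera level of 18.7 and cells with Xist alone 14.6, and the A2m levels were 33.4 and 22.8. Cells with all 4 markers hold a Kera UMI by their choice and so leave out the 40 Angpt1ΔNC cells without one; Kera changed by −1.504 among them (adjusted p = 0.0775), which is no test of Kera in the class. Kera was also lower in Angpt1ΔNC cells of cluster 13, by −1.19 (adjusted p = 7.71e-05), where a UMI was found in 87.3%, 86.7% and 64.1% of its cells. In TM2 to TM11 the level was 0.166, 0.125 and 0.0956, and in the epithelium 0.0171, 0.00505 and 0.00604, where 2.22%, 1.09% and 0.439% of cells had a UMI.

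Over all genes tested in the keratocytes, 347 of 8419 were called (4.12%), 145 higher (1.72%) and 202 lower (2.4%) in Angpt1ΔNC, around a median of all genes of −0.0069. The number of calls moved by more than 1.5 times with the method: DESeq2 called 39 genes, all among the 347, equal numbers of cells per library gave 87, and male-typed cells gave 36. Of the 79 changes followed through the alternatives, 74 had a DESeq2 value. Of these, 24 kept the status, called or not called, that edgeR gave. Angptl7 and Matn4, which edgeR did not call, are among the 79. In male-typed cells Mmp3 (2.52), Timp3 (2.36), Gpha2 (−2.23) and Igfbp5 (−2.24), which are described below, were called as well, while Col12a1 (−1.01), Fmod (0.76) and Aspn (1.80) were not.

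The 12 genes named as higher and the 12 as lower are the protein-coding genes with the smallest p-values past a log2 change of 1. For each the Angpt1ΔNC library lay outside both controls, and sex-linked genes were left out. The rule also left out 6 higher and 10 lower genes of other biotypes. Igfbp6 had levels of 0.505, 0.865 and 7.0 and a UMI in 25.2%, 37.2% and 76.5% of cells, or 6.00%, 12.2% and 49.1% after thinning. The Angpt1ΔNC library stood far above both controls, with a change of 3.42 ± 0.27 (adjusted p = 1.17e-12), which DESeq2 did not call (adjusted p = 0.0619). Male-typed cells gave 2.84 (adjusted p = 0.00858). Mmp3, stromelysin 1, which cleaves proteoglycans and activates other collagenases, had levels of 1.99, 2.04 and 8.75 and rose by 1.99 ± 0.21 (adjusted p = 7.41e-09), from 27, 39 and 48 cells. Timp3, an inhibitor of matrix proteases that binds the matrix, rose by 2.14 ± 0.26 (0.661, 1.21 and 3.78; adjusted p = 1.63e-07), but DESeq2 gave an adjusted p of 0.577. Adh7, a retinol-oxidizing alcohol dehydrogenase, rose by 2.51 (0.205, 0.131 and 1.06) and Cav1, the coat protein of caveolae, by 2.99 (0.0359, 0.0897 and 0.541). Ptx4, a pentraxin, rose by 3.74 from levels of 0.0144, 0.0381 and 0.268, and Slc38a1, a glutamine transporter, by 1.58. In TM2 to TM11 Adh7 rose by 3.00 and Ptx4 by 3.47, and no difference from TM1 was called for either. The LIM-domain gene Lmo4 rose by 1.40, and in the epithelium by 0.77, with no difference from TM1 called (0.56 ± 0.26). DESeq2 called neither Slc38a1 (adjusted p = 0.0962) nor Lmo4 (0.164) nor Tpm3-rs7, which is named below, and gave Ptx4 no value. In male-typed cells Cav1 (adjusted p = 0.0528) and Slc38a1 (0.147) were not called. Cck, which encodes cholecystokinin, rose by 3.06, but 1 cell held 70.1% of its Angpt1ΔNC UMIs. Il11ra1, the interleukin 11 receptor, had levels of 0.945, 0.704 and 6.56 (2.91 ± 0.22), and Gm13305, a near copy of it, fell by 1.80 on the log2 scale (7.92, 6.23 and 1.96). The pair summed to 8.37, 6.97 and 8.36, so that reads may be split between them and neither is read as changed on its own. Il11ra1, Rpl29 (2.00) and Tpm3-rs7 (1.57) were called in the epithelium too, at 2.33, 2.19 and 1.65, and the last pair have near-identical copies in the genome. Without control 1 or control 2, a ratio of scaled counts lay over 1.5 times from the fitted fold for 6 genes, all still above 0. These were Igfbp6 (2.90 and 4.11), Timp3 (1.68 and 2.74), Cck (2.35 and 3.50), Cav1 (2.28 and 3.43), Ptx4 (2.84 and 3.52) and Tpm3-rs7 (2.18 and 1.14). A small count is added in these ratios, and its part in the moves of low-count genes was not tested.

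Among the genes that fell, Tac1, the precursor of substance P, had levels of 4.72, 4.88 and 0.423 and UMIs in 56, 41 and 15 cells. It fell by 3.66 ± 0.29 (SE) on the log2 scale (adjusted p = 1.17e-12), and was called in male-typed cells also (−3.79). Tac1 fell in cluster 13 too (10.5, 5.88 and 1.68, a change of −2.40), and no difference from TM1 was called there (−1.27 ± 0.43). In TM2 to TM11 it changed by −1.04, a smaller fall that was also called. Gal, the neuropeptide galanin, had 278, 403 and 3 UMIs from 10, 13 and 2 cells, so its change of −6.15 rests on a few galanin-rich control cells. Gpha2, a glycoprotein hormone subunit that marks limbal epithelial stem cells, had levels of 8.66, 9.64 and 1.81 (−2.79 ± 0.26, adjusted p = 2.06e-10). In the epithelium its levels were 17.0, 34.6 and 22.7, present in 82.0%, 93.6% and 94.8% of cells, and in cluster 13 they were 24.8, 38.0 and 8.54. Thinned to 2000 UMIs, 33.3%, 32.4% and 8.18% of TM1 cells had a Gpha2 UMI. The limbal and corneal epithelial markers of TM1, at 0.981, 0.901 and 1.27 in sum, were not lower in the Angpt1ΔNC library. The source of the Gpha2 transcripts in TM1 was not tested. Igfbp5, an insulin-like growth factor binding protein held in the matrix, fell by 2.15 on the log2 scale (8.96, 11.5 and 3.59; adjusted p = 1.20e-07). Htr1d, a serotonin receptor, fell by 3.32 (0.589, 0.617 and 0.0581). Cthrc1, a secreted protein of collagen-producing fibroblasts, fell by 3.51 (1.15, 1.69 and 0.141), with 40.0% of its Angpt1ΔNC UMIs in 1 cell. C1rb fell by 6.63 and C1s2 was at 0 in Angpt1ΔNC, at least 22.8-fold lower, but these are copies of the complement genes C1ra and C1s1, which rose by 1.16 and 1.19. The sums were 1.58, 1.42 and 1.43 for C1ra with C1rb, and 2.11, 1.55 and 2.89 for C1s1 with C1s2. Gm10260, Gm10320 and Gm11361 are predicted genes by name, annotated as protein-coding. Gm10260 was at 0 in Angpt1ΔNC (at least 105-fold lower) and the others changed by −6.17 and −3.53. In the epithelium the 3 changed by −8.72, −4.81 and −4.04 and were called there as well. Without control 1 and without control 2 the fall was −5.93 and −5.18 for Gal, −3.78 and −2.86 for Cthrc1, −5.51 and −5.32 for C1rb and −5.04 and −4.91 for Gm10320. These are ratios of scaled counts with a small count added, which draws genes with few UMIs toward no change, and not the fitted changes above.

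**Figure D3:**
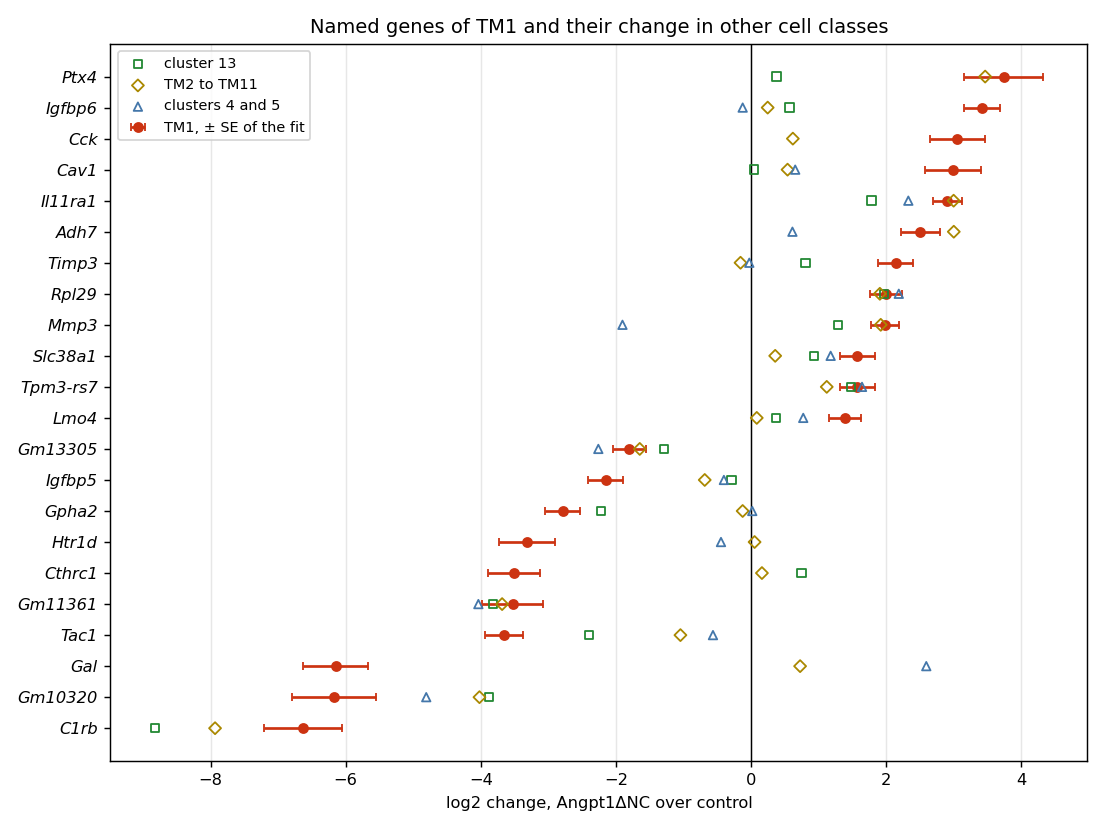
Log2 change of Angpt1ΔNC over control for the 22 named genes with an Angpt1ΔNC UMI in TM1 (filled circles, ± SE of the fit), with the change of the same gene in cluster 13, in TM2 to TM11 and in clusters 4 and 5 as open symbols. Il11ra1, Rpl29, Tpm3-rs7, Gm10320, Gm11361 and Gm13305 lie on the same side in the epithelium, while Igfbp6, at 3.42 in TM1, is at 0.57 in cluster 13 and 0.25 in TM2 to TM11.

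Of the small leucine-rich proteoglycans, 12 were tested, with 3 called higher, 1 lower and a median of 0.59. Kera was the one that fell. Fibromodulin (Fmod), which steers fibril growth, had levels of 9.93, 12.8 and 21.5 and rose by 0.81 (adjusted p = 0.0296), osteomodulin (Omd) had 0.725, 1.63 and 2.50 (1.15), and asporin (Aspn) had 0.119, 0.192 and 0.450 (2.18). Ogn (0.53), Prelp (0.48) and Bgn (−0.35) did not pass. DESeq2 called only Kera of these 4, with adjusted p = 0.532 for Fmod, so that the rises depend on the method. Without control 1 and control 2 Omd changed by 0.66 and 1.85. Fmod, Aspn, Igfbp6 and Ptx4 were all genes at which cluster 13 stood higher than TM1 in the controls.

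Most collagen genes lay below 0. Of 27 tested, 22 had a log2 change under 0, 6 were called lower and 1 higher, and the median was −0.57. Col12a1, whose product sits on the surface of type I fibrils, had levels of 25.3, 26.7 and 12.8 and fell by 1.13 (adjusted p = 0.00327, and 0.018 in DESeq2). Col6a3 (16.1, 14.9 and 9.57) fell by 0.84 and Col5a1, a chain of the type V collagen that sets fibril diameter in the cornea, by 0.87 (10.2, 6.59 and 5.26). Col14a1 fell by 1.77 and Col13a1 by 1.22. Col3a1 changed by −1.35, but 75% of its Angpt1ΔNC UMIs came from 1 cell, and in male-typed cells the change was 0.08. Type VIII collagen (Col8a1), a component of endothelial basement membranes, was the one called higher (1.67, with 0.87 and 2.98 without control 1 and control 2). DESeq2 called Col12a1 alone of these 7.

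Of 24 genes that modify or process collagen, P4ha3 (3.13), Pcolce2 (1.09) and P3h2 (1.91) rose and Plod1 (−1.07), Tgm2 (−1.01) and P3h4 (−0.80) fell, around a median of −0.22. Pcolce2, which enhances the trimming of procollagen, had levels of 2.79, 4.33 and 8.0. P4ha3 changed by 1.92 and 3.59 without control 1 and control 2. DESeq2 gave P4ha3 and P3h2 no adjusted p and called none of the other 4. Plod1 is a lysyl hydroxylase and Tgm2 a crosslinking transglutaminase. Of 19 genes of glycosaminoglycan synthesis, with a median of −0.74, only Chst5 was called, near the 4.12% called over all genes tested. It had levels of 4.33, 3.04 and 1.86 and fell by 1.10 (adjusted p = 0.00381), and by 1.39 (adjusted p = 0.0484) in male-typed cells. Of 20 corneal crystallin and metabolic enzyme genes, Aldh3a1 (−0.97, adjusted p = 0.0129) and the arginine-pathway gene Ass1 (−1.04) were called lower and none higher, with a median of −0.28. DESeq2 called neither of them, nor Chst5.

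**Figure D4:**
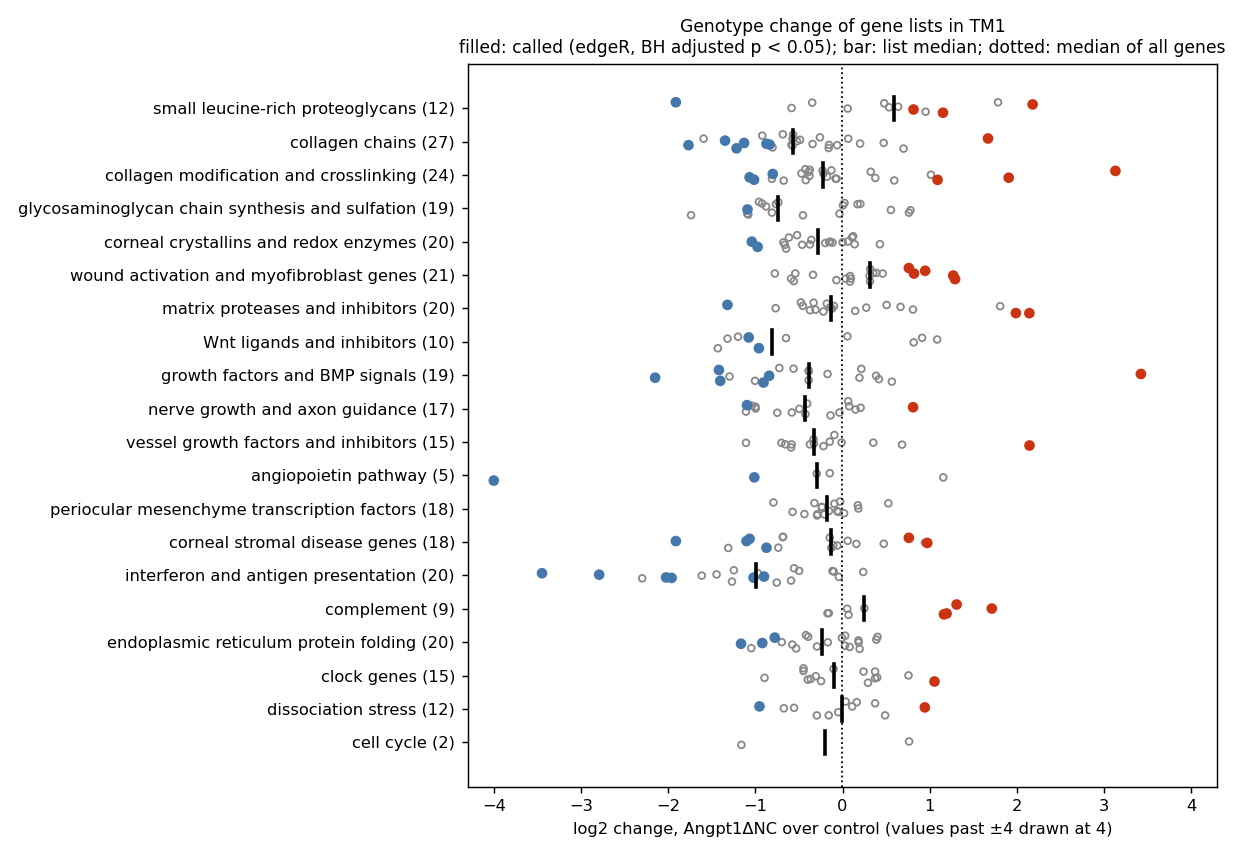
Log2 change of Angpt1ΔNC over control in TM1 for each tested member of the gene lists (number tested in parentheses), filled where called by edgeR, with a bar at each list's median and a dotted line at the median of all genes, −0.0069. The collagen list centres on −0.57 and the small leucine-rich proteoglycans on 0.59, and values past 4 in size are drawn at 4.

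Wound and myofibroblast genes that were called lay at low levels. Of 21 tested, 5 were called higher and none lower, with a median of 0.31: Acta2 (1.29), Tagln (1.27), Tnc (0.95), Ctgf (0.82) and Tgfbi (0.76). Tgfbi, a corneal matrix protein, had levels of 1.79, 2.52 and 3.43. Acta2, smooth muscle actin, had a UMI in 12.6%, 16.9% and 16.5% of cells, and 1 cell held 28.2% of its 71 Angpt1ΔNC UMIs. In male-typed cells Acta2 changed by −0.91 and Tagln by −0.62, and DESeq2 called none of the 5. Tnc changed by 0.43 and 1.69 without control 1 and control 2. The pericyte and smooth muscle markers summed to 0.332, 0.660 and 1.5, and all 3 that were tested (Acta2, Myh11 and Rgs5) were called higher. The 48 Rgs5 UMIs came from 3 Angpt1ΔNC cells and the 19 Myh11 UMIs from 4, and their changes without control 1 and control 2 were 0.78 and 3.96 for Rgs5 and 2.76 and 1.63 for Myh11. Their part in the Acta2 and Tagln values was not tested.

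Of 20 proteases and inhibitors, Mmp3 and Timp3 rose and A2m fell, with a median of −0.13. Among 19 growth factor genes, with a median of −0.39, Igfbp6 rose and Igfbp5, Fgf21, Pdgfrl, Igfbp3 and Bmp3 fell. Fgf21, a metabolic hormone, had levels of 7.0, 2.21 and 1.62, with control 1 apart from the others (−1.40, and −0.50 without control 1), and Pdgfrl had 8.85, 9.60 and 4.74 (−0.91). Igfbp3 changed by −1.42, and by −0.67 without control 1. Of 10 Wnt pathway genes, Wnt11 (−1.08) and the Wnt antagonist Dkk2 (−0.96) fell and none rose, with a median of −0.80. In the angiopoietin list 5 genes were tested and Angpt1 and Angptl1 fell, the latter with levels of 3.46, 3.82 and 1.89 (−1.01). Among nerve-guidance genes the semaphorin Sema3f fell (−1.10). Of 15 vessel-related genes only Timp3 was called. None of 18 transcription factors of neural crest and keratocytes was called in either direction, at a median of −0.18. Over all genes tested 4.12% were called, so such counts in lists of this size are no result about their members. DESeq2 called neither Wnt11, Dkk2, Sema3f nor Angptl1.

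Of 18 genes linked to corneal or connective tissue disease, Gsn and Tgfbi rose and Kera, Chst5, Plod1 and Col5a1 fell, with a median of −0.14. Gsn, the actin-severing protein gelsolin, had levels of 4.28, 6.05 and 9.31 (0.97, adjusted p = 0.00687). Among complement genes, Clu (0.500, 1.88 and 3.84), C1s1 and C1ra were called higher, the last pair with the copies named above. Of 20 endoplasmic reticulum genes Pdia3 (−1.16), Pdia4 (−0.92) and Hsp90b1 (−0.78) fell, and the median was −0.23. DESeq2 called Pdia3 but not Gsn or Clu, and Clu changed by 1.01 and 3.00 without control 1 and control 2. Of 15 clock genes Nr1d1 rose (1.04), which is near the 4.12% called over all genes tested. Of 12 dissociation and stress genes Egr1 rose (0.94) and Hspa1b fell (−0.95), around a median of −0.0068. Only 2 cell cycle genes had counts enough to be tested, and neither was called.

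Interferon and antigen presentation genes set control 1 apart. Of 20 tested, 6 were called lower in Angpt1ΔNC and none higher, with a median of −1.0, but the summed level was 60.9, 26.8 and 29.3. Irf7 had levels of 1.42, 0.0825 and 0.190 (−2.79), and Isg15 of 1.99, 0.280 and 0.342 (−1.96). Without control 1 they changed by 0.54 and 0.10. Ifit3 (−2.02), Iigp1 (−3.45) and H2-K1 (−0.90) were also called, and H2-D1, a class I antigen-presenting molecule, had levels of 18.1, 8.03 and 6.82 (−1.02). Without control 1, Ifit3 changed by −0.36, Iigp1 by −0.84 and H2-D1 by −0.31.

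The genotype change of keratocytes was then set against that of TM2 to TM11 (7651 cells), by a test of the difference between the changes over the same 3 libraries. Of 13388 genes, 78 differed (0.583%), 23 with a higher change in TM1 (0.172%) and 55 with a lower one (0.411%). Timp3 was 0.661, 1.21 and 3.78 in TM1 and 16.2, 18.2 and 14.9 in TM2 to TM11, a difference of 2.31 ± 0.28 (adjusted p = 0.00978). In cluster 13 Timp3 rose too (9.06, 12.8 and 17.9, a change of 0.81). No difference from TM1 was called for it in that cluster (1.41 ± 0.25). Igfbp6 was 7.47, 6.51 and 8.43 in TM2 to TM11, a difference of 3.20 ± 0.39 that DESeq2 did not call (adjusted p = 0.134). Cebpd, a stress-responsive transcription factor, kept its low level in TM1 (1.71, 1.34 and 1.66) where it was 33.1, 29.5 and 8.11 in TM2 to TM11, a difference of 1.68. The DNA repair gene Rad51b differed by 4.55. Gal differed by −6.97, Gpha2 by −2.71 and Tac1 by −2.67. Dpt, with levels of 6.61, 4.90 and 2.06 in TM1 and 0.308, 0.254 and 0.869 in TM2 to TM11, differed by −2.95 ± 0.21. Cyp2f2, a cytochrome P450, had 5.11, 6.72 and 4.86 in TM1 and 0.179, 0.393 and 2.28 elsewhere (−3.33), so that the larger move lay in the other groups. Kera differed by −1.18 (adjusted p = 0.027), which DESeq2 did not call. The number of differing genes was 182 with another scaling and 43 with DESeq2.

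Against cluster 13, 18 of 9318 genes differed (0.193%), 6 higher (0.0644%) and 12 lower (0.129%). Gsn rose in TM1 while its cluster 13 levels were 46.8, 71.0 and 34.3, a difference of 1.83 ± 0.17 (adjusted p = 0.00182). Fmod, at 61.7, 64.6 and 40.7 in cluster 13, differed by 1.38, Igfbp6, at 25.5, 21.3 and 35.7, by 2.93, Ptx4 by 3.39 and the nucleolar gene Nop58 by 1.63. Of these 5 genes DESeq2 called Gsn alone, with adjusted p = 0.0703 for Fmod, 0.874 for Igfbp6, 0.0976 for Ptx4 and 0.364 for Nop58. In the other direction Igfbp2, an abundant transcript of TM1 (226, 197 and 148), was 1.66, 1.16 and 19.996 in cluster 13, a difference of −4.68 ± 0.22 (adjusted p = 6.15e-06). Lum was 4.93, 4.71 and 13.2 there (−2.04 ± 0.18, adjusted p = 0.00158) and Apoe, the lipid carrier apolipoprotein E, 4.19, 6.33 and 11.6 (−2.11). Cthrc1 differed by −4.20 and Cyp2f2 by −3.45. For Igfbp2, Lum, Apoe, Gsn and Fmod, the levels of the classes lay nearer to each other in Angpt1ΔNC than in the controls. For Cthrc1 the order of the classes turned, with 1.15, 1.69 and 0.141 in TM1 and 0.479, 0.667 and 0.841 in cluster 13. All of these genes were named for a differing change, so their levels are no test of whether the classes drew together. Cluster 13 held 64 Angpt1ΔNC cells, and whether cells near the border of the clusters were assigned alike in the libraries was not tested. Tendon and scleral markers, the set that marks cluster 13, were at 8.46 in the Angpt1ΔNC keratocytes, below both controls, which is no test of how cells were assigned. The fall of Kera did not pass a difference between the classes (−0.70 ± 0.20, adjusted p = 0.42), which does not show that the falls were alike.

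Against the epithelium of clusters 4 and 5 (2912 cells), 78 of 12541 genes differed (0.622%), 35 higher (0.279%) and 43 lower (0.343%). Mmp3 was 0.563, 0.683 and 0.161 in the epithelium and differed by 3.80 ± 0.26 (adjusted p = 6.48e-06). It also rose in TM2 to TM11 (1.92) and in cluster 13 (1.29), and no difference from TM1 was called there (0.02 ± 0.19 and 0.63 ± 0.33). Pcolce2 differed by 3.97, Igfbp6 by 3.55 and Cd200, an immune-regulating surface protein, by 3.53. Fos, an immediate early gene, was 8.57, 7.29 and 11.3 in TM1 and 2.73, 2.00 and 1.01 in the epithelium, a difference of 1.88. Gal differed by −8.82, Cyp2f2 by −4.28, the lipolysis inhibitor G0s2 by −3.65, Tac1 by −3.16 and Igfbp2 by −1.74. For Pcolce2, Cd200, Cyp2f2 and G0s2 the larger log2 move lay in the epithelium. Cd200 was 0.206, 0.264 and 0.403 in TM1 and 0.195, 0.147 and 0.0250 in the epithelium. G0s2 was 0.611, 0.733 and 0.538 in TM1 and 0.0180, 0.0373 and 0.290 in the epithelium. With no filter on low counts no gene passed here, while 1003 had an unadjusted edgeR p under 0.05.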

How the data were processed

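Reads were aligned by the authors with Cell Ranger to the mouse build mm10, and the deposited matrices hold raw UMI counts per gene and cell barcode (the submitters' processing notes name Cell Ranger 2.1.1 and Seurat 3.1.3, while the matrix headers give software version 3.0.2). The authors kept cells with enough genes and UMIs and at most 10% mitochondrial reads, removed doublets with scDblFinder, and integrated and clustered the libraries. Sex-specific transcripts and Angpt1 were left out of their anchor genes. The deposited annotation tables also carry integrated natural log values per cell, which were not used. Here the cluster labels of those tables were matched to the barcodes of the 3 count matrices, and gene positions were taken from the annotation of the same build.

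UMI counts of TM1 cells were summed per library and tested with edgeR 4.0.16 in R 4.3.3 (TMM scaling, quasi-likelihood test, Benjamini-Hochberg adjustment over all genes with at least 10 UMIs in 1 library and 30 in all). The replicates are pools. The p-values rest on the spread between the 2 control libraries together with dispersion that edgeR shares over genes, so a small p-value is not the spread of that gene alone. A difference between cell classes was an interaction term in a fit with a term for each library. DESeq2 1.42.0, another scaling, other count filters, equal cell numbers, cells without keratin UMIs, cells with all 4 markers and each control left out were the alternatives. With a control left out no test was run. The change is then a log2 ratio of scaled counts with a small count added, which draws low-count genes toward no change. Male-typed cells, and shares and levels without each control, were added after the data had been seen. Named genes were the 12 protein-coding genes with the lowest adjusted p per direction past a log2 change of 1. For differences 5 per direction were named, and sex-linked genes were left out of both. Others belong to the gene lists, or were chosen after their values were seen (C1ra, C1s1). Some results that the rule would name are not reported here. Members and lists were chosen with earlier results of these data known. In simulated data with 200 changed genes, the genotype comparison on 8364 genes recovered 32.0% of changes of log2 1 and 92.0% of log2 2, and 6.06% of its calls were false. The difference tests recovered 9% and 73% against TM2 to TM11, 3% and 49% against cluster 13, and 7% and 70% against clusters 4 and 5. Their false calls were 3.53%, 11.9% and 2.53%. The simulated spread between libraries was a fixed setting, not fitted to these data. The changed genes were drawn only from genes with more UMIs in TM1 than the filter required, so the rates do not cover genes of low count. Shares carry exact (Clopper-Pearson) 95% intervals.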

Additional observations from a re-analysis of the deposited data

Results flagged for a closer look

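For the genes below the genotype change of the keratocytes differed from that of another cell class, by the interaction term of edgeR's quasi-likelihood fit with adjusted p under 0.05. Each value is the log2 change in TM1 minus the log2 change in the other class. No explanation was weighed.

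Against TM2 to TM11, the change was higher in TM1 for Cebpd (1.68), Timp3 (2.31), Igfbp6 (3.20), Rad51b (4.55), the proteoglycan gene Aspn (2.31) and Ctgf (1.21). It was lower for Gal (−6.97), Dpt (−2.95), Gpha2 (−2.71), Tac1 (−2.67), Cyp2f2 (−3.33) and Kera (−1.18). The collagen genes Col3a1 (−2.13), Col5a1 (−1.53) and Col6a3 (−1.77), the enzymes Aldh3a1 (−1.70) and Ass1 (−1.74), and the secreted factors Dkk2 (−1.52), Bmp3 (−2.08) and Igfbp5 (−1.50) were lower in TM1 as well.

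Against cluster 13, the change was higher in TM1 for Gsn (1.83), Igfbp6 (2.93), Ptx4 (3.39), Fmod (1.38) and Nop58 (1.63). It was lower for Igfbp2 (−4.68), Lum (−2.04), Cthrc1 (−4.20), Cyp2f2 (−3.45) and Apoe (−2.11).

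Against the epithelium of clusters 4 and 5, the change was higher in TM1 for Mmp3 (3.80), Pcolce2 (3.97), Fos (1.88), Igfbp6 (3.55), Cd200 (3.53), P3h2 (2.35), Ctgf (3.29), Timp3 (2.16) and Egr1 (1.51). It was lower for Gal (−8.82), Cyp2f2 (−4.28), G0s2 (−3.65), Igfbp2 (−1.74), Tac1 (−3.16), Tgm2 (−1.63), Igfbp5 (−1.80) and Ifit3 (−2.79). Cyp2f2 differed from all 3 classes, and Igfbp6 did so in edgeR, while DESeq2 called its difference from the epithelium only (adjusted p = 0.134 against TM2 to TM11 and 0.874 against cluster 13). DESeq2 also called neither Ptx4, Fmod nor Nop58 against cluster 13.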

How the results depend on the processing

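The number of genes called in the keratocytes, 347, became 39 with DESeq2 (9 higher and 30 lower), 87 with equal cells per library (30 and 57), 23 in cells with all 4 markers (8 and 15) and 36 in male-typed cells (12 and 24), each direction past 1.5 times its count. It was 418 with RLE size factors, 422 with no filter, 319 with 10 counts in every library and 282 without keratin-positive cells. Differences from TM2 to TM11, 78, became 182 with RLE, 344 with no filter, 246 with 10 counts in every library, 251 with equal cells and 43 with DESeq2. Differences from cluster 13, 18, became 119, 4, 95 and 9 in the last 4 of these settings. Differences from clusters 4 and 5, also 78, became 39 with RLE, 0 with no filter (1003 genes at an unadjusted edgeR p under 0.05), 44 with 10 counts in every library and 297 with equal cells. The causes were not tested.

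The ratio of the Angpt1ΔNC share of keratocytes to the control mean, 1.06, was 0.735 by the 4 markers and 0.969 to 1.17 with a control left out. Cells with the 4 markers were chosen by UMIs of Kera and A2m, so their changes there (−1.504 and −1.17, neither called) are no test of these genes. A2m was not called in male-typed cells (−0.97).

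Thinned to 2000 UMIs, the share of TM1 cells with a UMI moved to 90% (control 1) and 88.2% (Angpt1ΔNC) for Angptl7, 97.3% (control 2) for A2m, and 97.3% (control 2) for Matn4, whose ratio of genotypes was 0.812 from summed counts. Values that changed sign were Angptl7 (0.0275 in cells with the 4 markers, and −0.61 to 0.53 with a control left out), Col3a1 (0.0774), Acta2 (−0.91) and Tagln (−0.62) in male-typed cells, and Irf7 (−3.60 to 0.54) and Isg15 (−2.72 to 0.10) with a control left out, above 0 without control 1. The direction held for 345 of the 347 called genes without control 1 and for 347 without control 2, but 36 and 33 of 79 named changes moved by more than their standard error. These values are ratios of scaled counts and not the fit, and that change of estimator was not separated from the control left out. Of the genotype changes named, some kept their direction and their status, called or not called, under an alternative. They were 24 of 74 with DESeq2, 34 of 79 with equal cells, 24 of 77 in male-typed cells and 18 of 77 in cells with the 4 markers. No paired analysis was possible because the labels pair no control with the single Angpt1ΔNC library.

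Gal and Myoc rest on few cells, and 1 residual degree of freedom limits every test.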

Other observations

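Beyond the lists, shares of called genes by chromosome are given as a description with no test. Over all genes tested, 347 of 8419 were called (4.12%). The chromosomes named here were picked for high or low shares after the values were seen. On chromosome 15, 24 of 326 tested genes were called (7.36%), and on chromosome 17 25 of 400 (6.25%). On the X chromosome 5 of 253 were called (1.98%), and on chromosome 8 9 of 444 (2.03%).

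Other genes of eye biology were called in the keratocytes. Myoc, which encodes the secreted meshwork protein myocilin, had 54, 62 and 3 UMIs in control 1, control 2 and Angpt1ΔNC, in 8, 16 and 2 cells, a change of −3.58 (adjusted p = 0.000144 in edgeR; −3.27 and −2.86 without control 1 and control 2). Pdpn, the mucin-like protein podoplanin, had levels of 1.53, 1.00 and 2.99 and rose by 1.29 ± 0.24 (adjusted p = 0.000356). DESeq2 called neither. These genes were picked after their values were seen.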
